A study of Homo sapiens with 2 samples.

Results

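Double-strand break and Fanconi repair genes were measured in NCI-H446 cells, a human line established from small cell lung carcinoma. The 43 genes were taken from a list by symbol and cover homologous recombination (14 genes), non-homologous end joining (6 genes), break sensing and checkpoint signalling (11 genes), and the Fanconi pathway with its nuclease partner (12 genes). A transcript cluster, the array's unit for one gene locus, that carried a single gene symbol was found for 39 of them, among 22465 genes in all, and each gene was represented by its brightest cluster. RAD54B had only a cluster shared with FSBP, and BRCA2, FANCA and FANCD2 were not analysed here.

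The 2 groups were cells stably transfected with an MTA1 overexpression plasmid (MTA1) and cells carrying the control vector (NC), with 1 Affymetrix array of total RNA each. Both groups were otherwise the same line in the same medium. The sources used here do not say whether either line was 1 clone or a pool. With 1 array per group no test could be run, and culture, transfectant line, array and MTA1 cannot be told apart. Every difference below is a log2 signal difference, MTA1 minus NC, and describes these 2 arrays only.

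Broken DNA is bound by the MRE11-RAD50-NBN complex and by the Ku heterodimer. The kinases ATM, ATR and DNA-PK respond to it, and ATM and ATR pass the signal on to the checkpoint kinases CHEK1 and CHEK2. Homologous recombination copies the sister chromatid after resection and is used mainly in S and G2 phase, while end joining ligates the ends through most of the cell cycle. The Fanconi pathway recognises DNA interstrand crosslinks, marks FANCI and its partner with ubiquitin, and hands the lesion to nucleases and to recombination. Small cell lung cancer is treated with platinum drugs that form such crosslinks, and MTA1 is a subunit of the NuRD histone deacetylase complex.

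MTA1 had a log2 signal of 9.82 on the MTA1 array, against 7.31 on the NC array, so the arrays matched their labels. A gene was kept when the higher of its values reached a floor of 3.62, the median over all transcript clusters, which left 14451 genes. Across these genes the median difference was -0.013, and 82.3% differed by less than 1.2-fold. The values reach 19.92 on the MTA1 array and 19.93 on the NC array, above the log2 of a 16-bit scanner reading, so a transformation was applied that the sources used here do not name, and fold sizes depend on it. Of 7 measured markers of neuroendocrine small cell lung cancer, UCHL1 (5.21 on the MTA1 array and 5.30 on the NC array) and INSM1 (4.21 and 4.06) reached the floor, while SYP, CHGA, NCAM1, GRP and DLL3 lay under it on both arrays. Of 7 measured markers of blood and endothelial cells, 5 lay under the floor on both arrays. CD68 reached it at 11.19 on the MTA1 array and 11.26 on the NC array, and PECAM1 at 4.08 and 4.12.

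All 39 measured repair genes reached the floor on both arrays, with mean log2 signals between 4.76 and 13.84. Most were close to level. None reached 2-fold, against 0.339% of all 14451 genes at least 2-fold lower and 0.291% at least 2-fold higher. At a threshold of 1.2-fold, a log2 difference of 0.263, 9 repair genes were lower and 1 was higher on the MTA1 array. The 9 lower genes make up 23.1% of the 39, against 9.35% of all genes, and the 1 higher gene 2.56%, against 8.4%. Among the 4173 genes with a mean signal in the repair genes' interquartile range of 6.52 to 9.11, 9.85% were at least 1.2-fold lower and 8.34% higher.

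The share of lower genes depended on the threshold. At 1.3-fold, 1 repair gene (2.56%) was lower, against 4.48% of all genes, and at 1.1-fold 17 repair genes (43.6%) were lower, against 23.1% of all genes. The difference was below 0 for 26 of 39 repair genes (66.7%), against 53.6% of all genes, and the median difference was -0.085, against -0.013 for all genes. RAD51D at -0.276 lay just past the 1.2-fold threshold and BRCA1 at -0.262 just inside it. In arrays of whole cultures, fewer cells in a phase of the cell cycle and less RNA per cell cannot be told apart. The spread of the difference between clusters of the same gene, a pooled SD of 0.260 over 157 genes, is as large as this threshold. It reflects probe sets hybridised with the same 2 RNAs, 1 per array, not separate cultures.

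**Figure D1:**
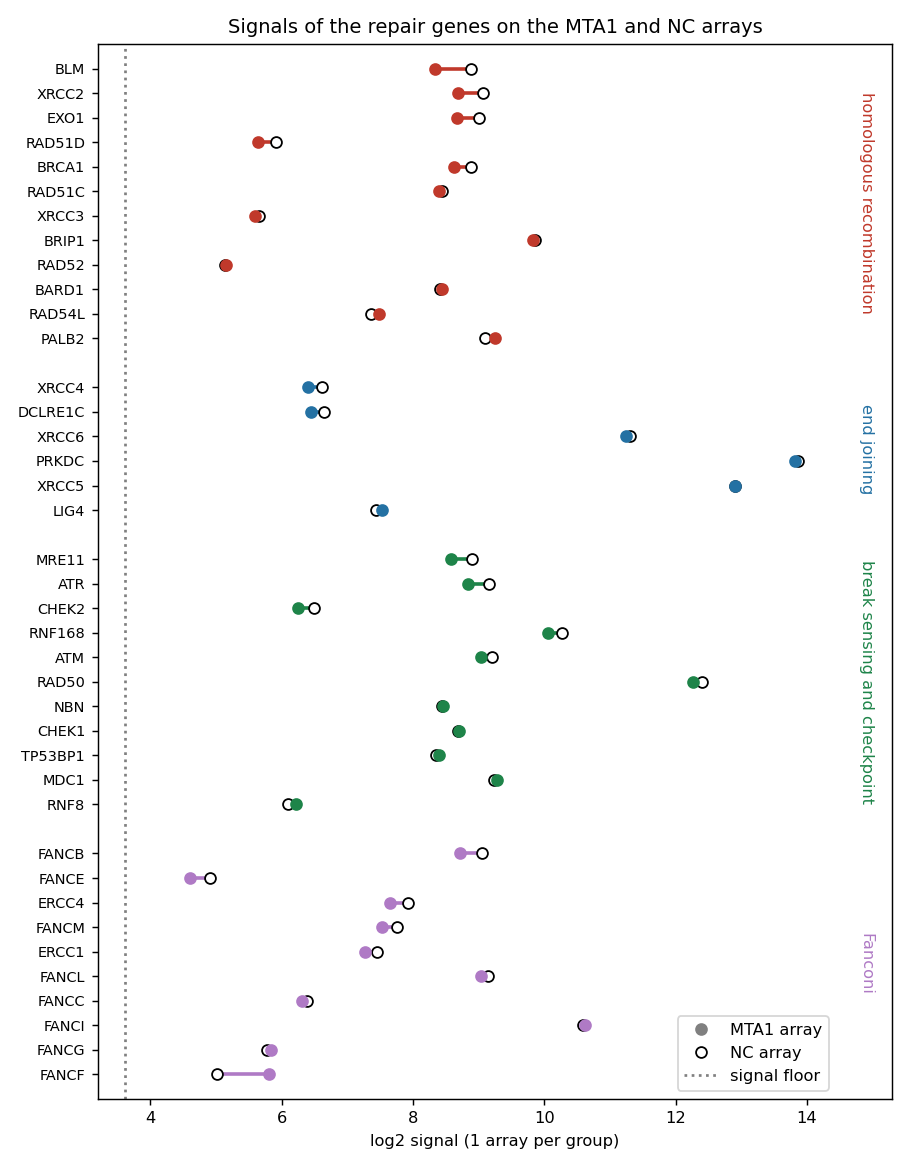
Log2 signal of each of the 39 measured repair genes on the MTA1 array (filled) and the NC array (open), 1 array each, grouped by role and ordered by difference; the dotted line is the floor of 3.62. The gaps are short next to the range of signals, and the longest are those of FANCF, with the MTA1 point on the right, and BLM, with the MTA1 point on the left.

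The largest difference of any repair gene, in either direction, was that of FANCF. FANCF encodes an adaptor subunit of the Fanconi core complex, the ubiquitin ligase of the pathway, and lies on chromosome 11. Its log2 signal was 5.81 on the MTA1 array, against 5.02 on the NC array, a difference of 0.79 or 1.73-fold. A share of 0.64% of all 14451 genes had a difference as high, but FANCF was picked as the most extreme of 39 genes. Its mean signal of 5.42 lay under the repair genes' interquartile range of 6.52 to 9.11. FANCF was measured by 1 transcript cluster, and both neighbouring coding genes were under the floor, SLC17A6 at 3.15 on the MTA1 array and 3.04 on the NC array and GAS2 at 3.04 and 2.94. The 250 bases upstream of the annotated start of FANCF are shown because this gene stood apart from the other core subunits. They hold the CCAAT motif (capitals) 92 and 52 bases before the start, at chr11:22625824-22626073 on the minus strand (RefSeq, GRCh38.p14).
FANCF upstream: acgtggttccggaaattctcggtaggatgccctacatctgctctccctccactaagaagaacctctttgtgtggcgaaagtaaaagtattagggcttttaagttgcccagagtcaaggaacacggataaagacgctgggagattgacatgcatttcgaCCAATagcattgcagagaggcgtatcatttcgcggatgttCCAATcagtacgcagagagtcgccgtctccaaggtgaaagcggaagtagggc

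The other subunits of the core complex did not share this difference. FANCB, which pairs with FANCL in the catalytic part, had a signal of 8.72 on the MTA1 array and 9.05 on the NC array, 1.26-fold lower. FANCE, which contacts the pathway's substrate, was at 4.61 on the MTA1 array and 4.91 on the NC array, 1.23-fold lower and nearest of all members to the floor. These are the only core subunits past 1.2-fold besides FANCF. FANCM, the DNA translocase that anchors the complex to DNA, was at 7.52 and 7.75 on the MTA1 and NC arrays. FANCL, the ubiquitin ligase subunit itself, was at 9.04 and 9.14, and the structural subunits FANCC and FANCG were at 6.31 and 6.39 and at 5.83 and 5.77. Over the 7 measured core subunits the differences ran from -0.334 to 0.791 with a median of -0.096.

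Downstream of the core complex, FANCI, the substrate that is ubiquitinated, was level at 10.62 on the MTA1 array and 10.59 on the NC array. ERCC4, the catalytic subunit of the XPF-ERCC1 nuclease that cuts beside a crosslink, was at 7.65 on the MTA1 array and 7.93 on the NC array, 1.22-fold lower. Its partner ERCC1 was at 7.27 and 7.45, a difference of -0.180 on the same side of 0 but within 1.2-fold. Of the 10 measured Fanconi genes, 3 were at least 1.2-fold lower, 1 was higher and 6 lay within, with a median difference of -0.138. The 2 largest higher differences were those of FANCF and of FANCG, at 0.065.

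The homologous recombination genes held the largest lower differences. BLM, the helicase that dissolves crossed-over intermediates and assists resection, had a signal of 8.34 on the MTA1 array, against 8.88 on the NC array, a difference of -0.538 or 1.45-fold lower. BLM lies on chromosome 15 and 2.12% of all genes had a difference as low, but BLM was picked as the lowest of 39 genes. Its coding neighbours were close to level, CRTC3 at 9.42 on the MTA1 array and 9.50 on the NC array and FURIN at 9.04 and 9.06. The upstream sequence of BLM is shown as the counterpart of that of FANCF, with the CCAAT motif on either strand in capitals 141, 46 and 21 bases before the start, at chr15:90717096-90717345 on the plus strand (RefSeq, GRCh38.p14).
BLM upstream: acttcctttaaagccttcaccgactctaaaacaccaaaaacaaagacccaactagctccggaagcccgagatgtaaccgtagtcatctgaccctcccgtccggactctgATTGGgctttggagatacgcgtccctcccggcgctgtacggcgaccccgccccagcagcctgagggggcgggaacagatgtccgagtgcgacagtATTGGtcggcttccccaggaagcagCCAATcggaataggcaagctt

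EXO1, the exonuclease of long-range resection, was 1.26-fold lower at 8.67 on the MTA1 array and 9.01 on the NC array. RAD51C, RAD51D, XRCC2 and XRCC3, which assist strand exchange, differed among themselves. XRCC2 was at 8.69 on the MTA1 array and 9.06 on the NC array, 1.28-fold lower, and RAD51D, which binds XRCC2 directly, was at 5.64 and 5.91, 1.21-fold lower. RAD51C, at 8.39 and 8.44, and its partner XRCC3, at 5.60 and 5.65, were close to level. All 4 were below 0, from -0.361 to -0.049.

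The BRCA1 group was split. BRCA1, the ubiquitin ligase that promotes resection and acts early in recombination, was at 8.63 on the MTA1 array and 8.89 on the NC array, a difference of -0.262. BARD1, its obligate partner, was level at 8.44 and 8.41. PALB2, a scaffold protein that binds BRCA1, had the highest difference of the group, at 9.25 on the MTA1 array and 9.09 on the NC array, 0.153 on the log2 scale. BRIP1, a BRCA1-bound helicase, was at 9.82 and 9.85. The differences of BRCA1 and its 3 partners thus ran from -0.262 to 0.153. RAD54L, a motor protein of strand exchange, had the second highest difference at 7.48 and 7.36, and RAD52, an annealing factor, was at 5.15 and 5.14. Of the 12 measured recombination genes, 4 were at least 1.2-fold lower (33.3%, against 9.35% of all genes). None was higher, against 8.4% of all genes, and 8 lay within, with a median of -0.051 over the 12.

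E2F motifs, written TTTCGCGC, TTTGGCGC, TTTCCCGC or TTTGCCGC on either strand, were searched in windows of 250 bases before and 50 after each annotated start. E2F factors drive many S phase genes, and 12 repair genes known as S phase genes or E2F targets were set apart as a list. Of 38 repair genes with a window, 6 held the motif (15.8%), against 5.4% of 15843 protein-coding genes. These were XRCC2, EXO1, XRCC6, FANCC, FANCA and FANCD2. Of the 9 genes at least 1.2-fold lower, XRCC2 and EXO1 held it. XRCC6 and FANCC held it at differences of -0.063 and -0.085. The matches (capitals) are shown with their surroundings in 30 bases for these 4 genes, at chr7:152676102-152676131 (minus strand), chr1:241848197-241848226 (plus), chr22:41621315-41621344 (plus) and chr9:95317863-95317892 and chr9:95317737-95317766 (both minus), from RefSeq, GRCh38.p14.
XRCC2: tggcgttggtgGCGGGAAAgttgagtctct
EXO1: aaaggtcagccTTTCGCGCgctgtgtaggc
XRCC6: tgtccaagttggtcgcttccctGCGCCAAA
FANCC, first match: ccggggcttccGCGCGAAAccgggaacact
FANCC, second match: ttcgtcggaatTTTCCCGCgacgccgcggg

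The CCAAT motif was present in 21 of 38 repair genes (55.3%), against 42.1% of protein-coding genes, and in 2 of the 9 lower genes, BLM and MRE11. The CHR motif TTTGAA was present in 5 of 38 (13.2%), against 15.8%, and the NRF1 motif in none, against 1.99%. A match of letters is a description and not a binding site. The 9 measured genes of the S phase list had a median difference of -0.030, and 3 of them (BLM, XRCC2 and EXO1) were at least 1.2-fold lower. The other 30 repair genes had a median of -0.090, with 6 lower and 1 higher. The median of the S phase list was thus the nearer to 0. It turned positive, at 0.010 and 0.003, when quantile or loess normalisation was applied, and the median of all genes was then 0.018 and 0.009.

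Among the genes that sense and signal breaks, MRE11, the nuclease of the MRE11-RAD50-NBN complex, was 1.25-fold lower, at 8.58 on the MTA1 array and 8.90 on the NC array. RAD50, the tethering subunit, was at 12.27 and 12.40, and NBN, which recruits ATM, was level at 8.45 and 8.44. Only the nuclease passed 1.2-fold. The upstream sequence of MRE11 is shown because its start lies back to back with that of ANKRD49, described further on, with the CCAAT motif on either strand in capitals 127 and 62 bases before the start, at chr11:94493845-94494094 on the minus strand (RefSeq, GRCh38.p14).
MRE11 upstream: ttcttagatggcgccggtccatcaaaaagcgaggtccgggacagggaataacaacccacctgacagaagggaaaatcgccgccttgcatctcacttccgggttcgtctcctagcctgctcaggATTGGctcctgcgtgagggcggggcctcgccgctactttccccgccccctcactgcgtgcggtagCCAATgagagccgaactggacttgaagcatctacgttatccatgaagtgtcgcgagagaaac

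ATR, the kinase that answers single-stranded DNA and stalled forks, was at 8.84 on the MTA1 array and 9.16 on the NC array, 1.25-fold lower. ATM, the kinase activated at double-strand breaks, was at 9.03 and 9.21, a difference of -0.186. The effector kinase CHEK2 was at 6.25 and 6.49, a difference of -0.241, while CHEK1, the effector of ATR, was level at 8.70 and 8.68. ATR, ATM and PRKDC, the 3 kinases that respond to broken DNA, were all below 0, and ATR alone was past 1.2-fold. Of the chromatin factors, the ubiquitin ligase RNF168 was at 10.05 and 10.27 and its upstream ligase RNF8 at 6.22 and 6.10, on opposite sides of 0. The scaffold MDC1 was at 9.28 and 9.23, and its 8 clusters, 7 of them on alternative haplotypes of chromosome 6, gave differences from 0.040 to 0.053. TP53BP1, which restrains resection, was at 8.39 and 8.35. RNF8 and MDC1 had the 2 largest higher differences of these 11 genes. Of the 11, 2 were at least 1.2-fold lower (18.2%, against 9.35% of all genes). None was higher, against 8.4% of all genes, and 9 lay within, with a median of -0.128 over the 11.

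None of the 6 end joining genes passed 1.2-fold, where 82.3% of all genes also lay within it. PRKDC, the catalytic subunit of DNA-PK, was at 13.82 on the MTA1 array and 13.86 on the NC array. Its Ku partners XRCC5 and XRCC6 were at 12.90 on both arrays and at 11.25 and 11.31. The differences of these 3 subunits of one kinase ran from -0.063 to -0.002. XRCC4, the scaffold of the ligation step, was at 6.40 and 6.61, and the ligase LIG4 at 7.53 and 7.44, so that these obligate partners lay on opposite sides of 0. DCLRE1C, the Artemis nuclease that trims ends, was at 6.44 and 6.64. The 2 highest differences were those of LIG4, at 0.092, and XRCC5, at -0.002. The median over the 6 genes was -0.051.

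**Figure D2:**
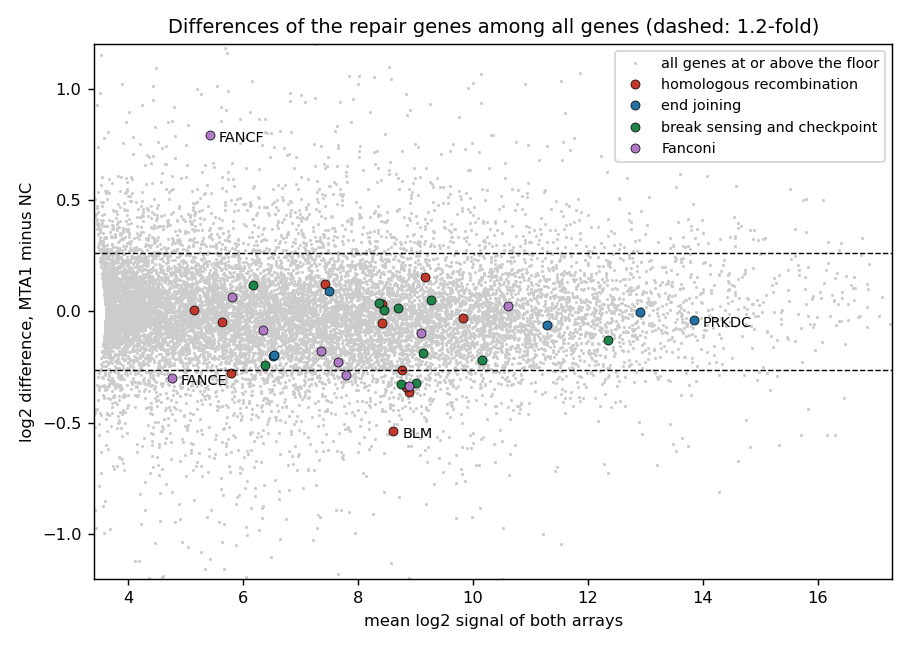
Log2 difference, MTA1 minus NC, against the mean log2 signal of both arrays for the 39 measured repair genes (colours by role) and all 14451 genes at or above the floor (grey; genes beyond 1.2 on the vertical axis are not shown); dashed lines mark 1.2-fold. The repair genes lie inside the grey cloud, with FANCF at 0.79 and BLM at -0.538 furthest from 0.

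The 4 role groups overlapped, and each holds too few genes to read a difference in the share past 1.2-fold from. Their medians were -0.051 for recombination, -0.051 for end joining, -0.128 for break sensing and checkpoint, and -0.138 for Fanconi genes, and each group had members on both sides of 0. The order of the medians depended on the scaling, and after quantile normalisation that of recombination was 0.010. The 20 repair genes at or above the members' median signal of 8.45 had a median difference of -0.112 with 6 of them lower, and the 19 under it had -0.052 with 3 lower and 1 higher.

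In the share at least 1.2-fold lower, the wider pathways lay closer to all genes than the listed repair genes did. Of 81 further genes of the same roles 73 were measured and 72 reached the floor. Of these, 8 were at least 1.2-fold lower and none higher, where 8.4% of all genes were higher. The lower share was 11.1%, near the 9.35% of all genes, against 23.1% of the listed repair genes. The share below 0, 52 of 72 (72.2%), was further from the 53.6% of all genes than the 66.7% of the listed repair genes. The median was -0.073, against -0.085 for the listed repair genes and -0.013 for all genes. REV3L, the catalytic subunit of the crosslink-bypass polymerase zeta, was at 8.18 on the MTA1 array and 8.56 on the NC array, 1.3-fold lower. POLQ, the polymerase of microhomology-mediated end joining, was at 8.84 and 9.21, 1.29-fold lower. RMI1, a partner of BLM, was at 8.39 and 8.75, 1.29-fold lower, and the Werner helicase WRN at 8.29 and 8.64, 1.27-fold lower. PARP1, the break-sensing ADP-ribose polymerase, was at 9.98 and 10.32, 1.27-fold lower, and TIPIN, a fork protection factor, at 9.48 and 9.82, 1.26-fold lower. ZSWIM7, a recombination cofactor, was at 5.99 and 6.27, and RIF1, an effector of TP53BP1, at 9.44 and 9.71. By role, the further genes had medians of -0.083 for recombination (25 genes, 3 lower), -0.037 for end joining (11 genes, 2 lower), -0.097 for checkpoint (24 genes, 2 lower) and -0.058 for Fanconi genes (12 genes, 1 lower).

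Genes of DNA replication and mitosis were also mostly below 0, where 53.6% of all genes lay, with 9.35% at least 1.2-fold lower and a median of -0.013. Of 31 measured G1/S and replication genes 7 were at least 1.2-fold lower (22.6%) and 27 were below 0 (87.1%), with a median of -0.123, led by MCM10 (8.84 on the MTA1 array and 9.47 on the NC array) and GINS1 (8.23 and 8.78). Of 19 G2/M genes 4 were lower (21.1%) and 15 below 0 (78.9%), with a median of -0.124, led by HMMR (9.02 and 9.34) and PTTG1 (6.38 and 6.70). The part of these genes in the result was not tested.

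**Figure D3:**
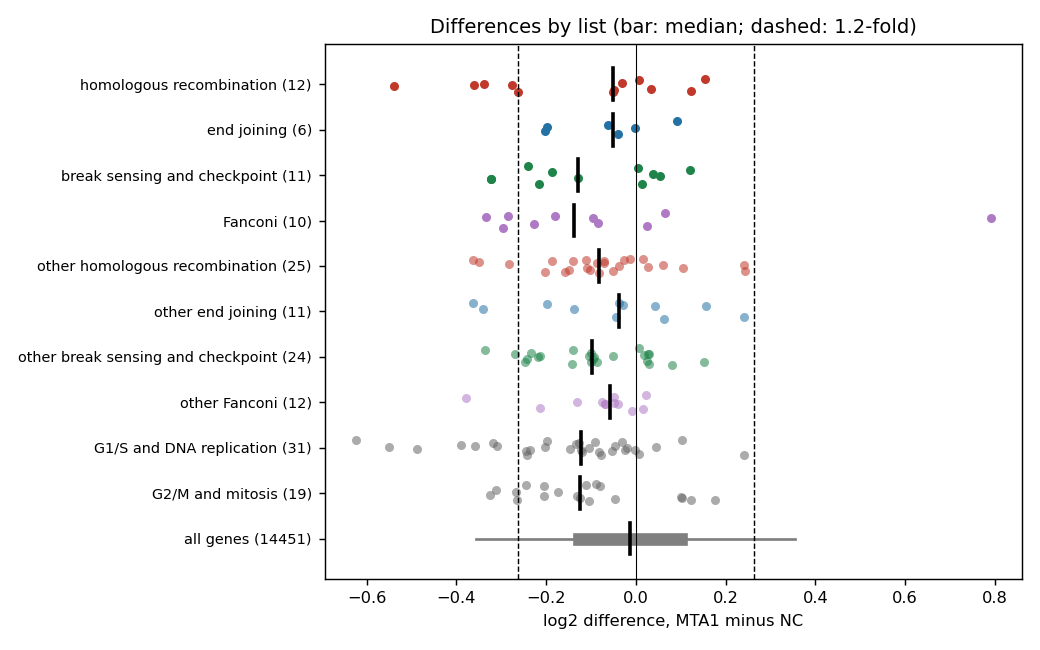
Log2 differences, MTA1 minus NC, of the repair genes by role, of further genes of the same roles and of 2 cell cycle lists, with the number of genes at or above the floor in brackets; each point is a gene, black bars are medians, dashed lines mark 1.2-fold, and for all genes the thick bar spans the quartiles and the thin line the central 90%. All list medians lie left of 0, from -0.037 to -0.138.

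Genes read in the other direction from a nearby start were also examined. Of the 38 repair genes with a window, 17 had an annotated start on the opposite strand within 1000 bases upstream. The same share over all genes was not counted, so 17 cannot be called many or few. In 11 pairs both genes reached the floor. In 7 of these pairs, which hold 6 repair genes since BRCA1 enters with 2 partners, both were below 0, and in none were both above 0. Over all 775 such pairs on the arrays both genes were below 0 in 39.5% and above 0 in 19.9%, and 11 pairs are too few to read a difference from. MRE11 and ANKRD49, whose starts lie 140 bases apart, had differences of -0.324 and -0.199. BRCA1 at -0.262 was paired with NBR2, at 7.57 on the MTA1 array and 7.72 on the NC array, and through another annotated start with NBR1, at 8.51 and 8.79. XRCC4 and TMEM167A, 153 bases apart, had differences of -0.202 and -0.287, ATM and NPAT -0.186 and -0.104, and CHEK2 and HSCB -0.241 and -0.088. FANCB at -0.334 and MOSPD2 at -0.051 differed in size. LIG4 was the clearest exception, at 0.092, while ABHD13, whose start lies 43 bases away, was at 8.84 on the MTA1 array and 9.21 on the NC array, a difference of -0.365.

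**Figure D4:**
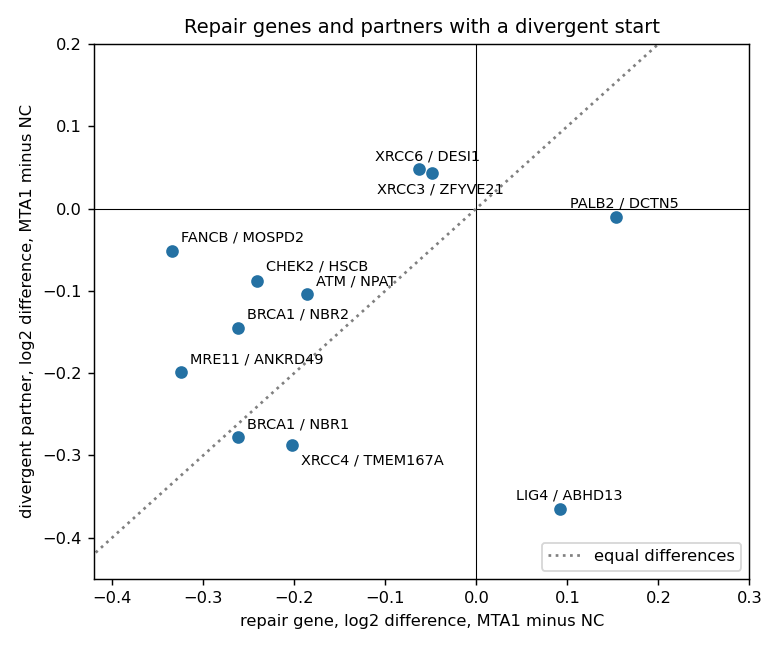
Log2 difference, MTA1 minus NC, of each divergent partner (vertical) against that of its repair gene (horizontal) for the 11 pairs with both genes at or above the floor; the dotted line marks equal differences. Of the pairs, 7 lie at lower left, and LIG4 with ABHD13 lies far below the line.

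The 4 spike-ins added at hybridisation (bioB, bioC, bioD, cre) differed by 0.230 to 0.280, higher on the MTA1 array, with a mean of 0.245. Shifting the arrays to them moved the median of all genes to -0.261 and that of the repair genes to -0.330, and put 25 of 39 repair genes at least 1.2-fold lower, against 49.5% of all genes. Relative to the median of all genes, the repair genes lay at -0.072 as deposited, -0.052 after loess and -0.054 after quantile normalisation. They lay at -0.069 after the shift to the spike-ins and at -0.073 with centred medians. Both of these move every gene by the same amount, so they could hardly change this distance. Quantile normalisation also turned the split of all genes to 7.40% lower and 10.6% higher, with 6 of 39 repair genes (15.4%) lower and 1 higher.

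**Figure D5:**
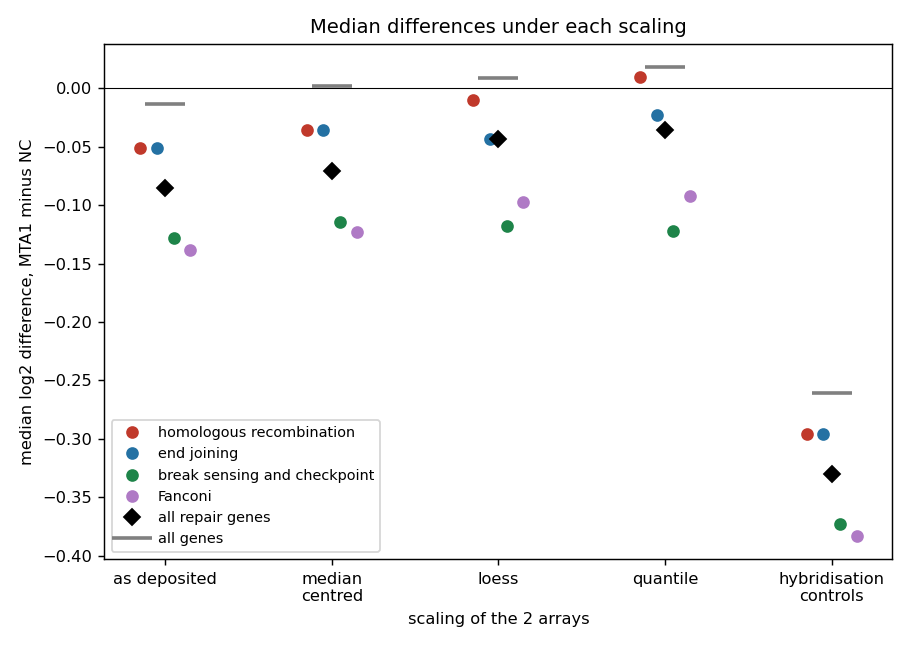
Median log2 difference, MTA1 minus NC, of the 4 role groups, all 39 repair genes (black) and all genes at or above the floor (grey bar) for the deposited values and 4 scalings of the 2 arrays. The repair genes lie under the grey bar in each, at -0.085 as deposited and -0.330 after the shift to the hybridisation controls, where all genes lie at -0.261.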

How the data were processed

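Total RNA of 2 stable NCI-H446 lines was hybridised to Affymetrix arrays, 1 per group, grouped by their labels. The authors deposited log2 signals, for which the submitters' processing notes name RMA. Its version, summarisation level and any further transformation are not given there, and no normalisation was added. The number of arrays limits the precision. Of 23781 clusters with a single symbol in the platform's probe table, 21497 matched a RefSeq table (GRCh38.p14) by gene identifier and took its symbol, and 1543 clusters with several symbols named no gene. The array's build is not given, so RefSeq coordinates belong to the sequences alone.

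The brightest cluster stood for a gene, the floor was the median cluster signal, and 1.2-fold and 2-fold were the thresholds. Differences were described without a test. The members, the lists and the 1.2-fold threshold were chosen with earlier results of these data known. Named were members past 1.2-fold, the 2 highest per role and further pathway genes past 1.2-fold; the remaining members are given with their signals, more than the rule asked for. Genes named only in the accounts of neighbours and divergent starts were chosen by their position. Scaling, floor, cluster choice and fold threshold were varied. Counts, medians and scalings were run on simulated differences well past the threshold with little noise. Smaller differences and the steps on promoters, divergent starts and neighbours were not simulated. Python 3.11.15 with numpy 2.4.6, pandas 2.3.3, statsmodels 0.14.6 and matplotlib 3.10.9 was used.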

Additional observations from a re-analysis of the deposited data

How the results depend on the processing

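In 9 alternatives of scaling, floor and cluster choice no measured repair gene past 1.2-fold changed direction and none reached 2-fold. With the floor at the 75th percentile FANCE, RAD52 and XRCC3 had no value. The number of repair genes at least 1.2-fold lower, 9 as reported, was 17, 1 and 0 at thresholds of 1.1-fold, 1.3-fold and 1.5-fold. The number higher was 2 at 1.1-fold. Of all genes, 23.1%, 4.48% and 1.74% were lower at these 3 thresholds, and 19.7%, 4.4% and 1.45% higher. The same thresholds gave 23, 1 and 0 further pathway genes lower and 5 higher at 1.1-fold, 13, 4 and 1 G1/S genes and 8, 0 and 0 G2/M genes lower. The shift to the hybridisation controls gave 25 repair, 51 further, 26 G1/S and 15 G2/M genes lower, and medians of -0.330 (all repair genes), -0.296 (recombination and end joining), -0.373 (checkpoint), -0.383 (Fanconi), -0.275 (S phase list), -0.335 (other repair genes), -0.320 (further genes), -0.368 (G1/S) and -0.369 (G2/M). It adds a constant to every gene, and 49.5% of all genes were then at least 1.2-fold lower. Medians of all repair and of further genes were -0.036 and -0.031 after quantile normalisation and -0.043 and -0.039 after loess, with 3 further genes higher in each, and 2 G2/M genes lower in each and with centred medians. Of all genes, 7.4%, 7.76% and 8.45% were lower after quantile, loess and median centring, and 10.6%, 9.89% and 9.33% higher. RAD51D lay inside 1.2-fold in these 3 settings, ERCC4 after quantile and loess, and FANCE after quantile normalisation. With the floor at the 75th percentile, which leaves fewer genes, the recombination median was -0.157. The cause of the other shifts was not tested. No paired analysis was possible because each group has 1 array. Depth is unknown for arrays, and FANCE at 4.61 and 4.91 lay nearest the floor.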

Other observations

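The cluster shared by RAD54B, a recombination motor protein, and FSBP had a signal of 7.12 on the MTA1 array and 7.21 on the NC array, and cannot be assigned to either gene. The other partners of BLM in its dissolving complex, chosen after their values were seen, were TOP3A at 7.46 on the MTA1 array and 7.55 on the NC array and RMI2 at 3.73 and 3.71, so that BLM and RMI1 but not these partners passed 1.2-fold. The single-strand binding subunits RPA1 (12.01 and 12.20), RPA2 (8.46 and 8.47) and RPA3 (4.51 and 4.59) lay within 1.2-fold. PAXX, an end joining accessory factor, at 7.50 and 7.26, and SWI5 and SWSAP1, recombination mediators at 7.25 and 7.01 and at 4.96 and 4.72, had the largest higher differences of the further pathway genes, and none passed 1.2-fold.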
